A study of Mus musculus with 2 samples.

Results

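Of the 36146 cells kept from 2 single-cell RNA libraries of the embryonic mouse eye, 334 passed a gate for the retinal pigment epithelium (RPE). A cell was counted as RPE when the genes *Rgr*, *Rlbp1*, *Slc16a8*, *Rdh5* and *Slc45a2* together held at least 0.1% of its transcripts, when at least 3 of these 5 genes were detected, and when *Pax3*, a transcription factor of melanocytes, was at 0. The cells were therefore chosen on their measured values, and the levels of these genes describe the gate and are not a result. Transcripts were counted as unique molecular identifiers (UMIs), so that copies made by amplification count once. A barcode was kept if over 500 genes were detected in it and mitochondrial genes held less than 15% of its UMIs.

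Each library was pooled from eyes of E17.5 embryos, 1 from *Myrf* humWT/humWT and 1 from *Myrf* humdG/humdG mice, given here as humWT and humdG. In both alleles the last exon of mouse *Myrf* was exchanged for the human exon, so that neither group has the mouse exon. The study describes the 3′ untranslated region in this exchange as endogenous in one place and as human in another. In humdG the human sequence in addition shifts the reading frame at the C-terminus of the protein, made after a splice-site variant of patients. The labels give 3 pooled eye cups per library without cornea, lens and optic nerve, whereas the methods of the study leave the cornea in place and describe more eyes, and the labels' protocol names floxed mice that are not in these libraries. With 1 library per genotype there was no replicate and no test, genotype and library cannot be told apart, and every interval below is a 95% interval for counting error only.

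The RPE is the pigmented epithelium between the retina and the choroid. It makes melanin, recycles and transports vitamin A for the photoreceptors, takes up shed outer segments, forms the outer blood-retina barrier with its tight junctions, and secretes factors to both sides. MYRF is a membrane-bound transcription factor that cleaves itself to release its DNA-binding part. It is known from myelinating cells and is needed in the RPE, where variants are linked to very small eyes.

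The humWT library held 17421 barcodes with 129135207 UMIs, of which 17017 were kept, and 202 of these passed the gate. This was 1.19% (1.03 to 1.36, exact Clopper-Pearson interval). The humdG library held 19565 barcodes with 114319529 UMIs, of which 19129 were kept, and 132 passed, which was 0.690% (0.578 to 0.818). The study's RPE cluster held a larger share of its cells in both genotypes, so the gated shares are not the RPE content of the libraries. A share depends on how many cells of other kinds were recovered beside the RPE, and retinal progenitors numbered 2479 in humWT and 5960 in humdG. The gate also depends on depth: when every cell was thinned to 1000 UMIs, 0.306% (0.229 to 0.402) passed in humWT and 0.208% (0.148 to 0.284) in humdG. At 1000 UMIs the 3 detected genes alone take more than the share the gate asks for, so that the gate on thinned cells is stricter, and the difference was not tested. Fewer RPE cells in the eye and fewer RPE cells released by the dissociation cannot be told apart either.

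Gated cells were deeper than the rest. Their median was 9399 UMIs (1924 to 120190) and 3298.5 genes in humWT, beside 3762 UMIs and 1424 genes in all other kept cells. In humdG the median was 7896.5 UMIs (914 to 99516) and 2759 genes, beside 2557 UMIs and 1173 genes. All gated cells together gave 2873365 UMIs in humWT and 1722322 in humdG, so that values of humWT rest on more counts. The share of UMIs in the gate genes had a median of 0.242% in humWT and 0.260% in humdG. At the threshold the lowest cell inside had 0.103% and the highest outside 0.0959% in humWT, and 0.108% and 0.0952% in humdG. *Pax3* removed 7 cells in humWT and 0 in humdG. The other 2 rules removed more: 95 cells in humWT and 167 in humdG reached the share with under 3 genes detected. Cells with at least 3 genes but under the share numbered 136 and 43. No gated barcode was gated in both libraries, although 102 barcodes occurred in both.

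The gate genes are retinal G protein-coupled receptor (*Rgr*), a retinal-binding opsin relative, the retinaldehyde carrier *Rlbp1*, the lactate transporter *Slc16a8*, the retinol dehydrogenase *Rdh5* and the melanosome transporter *Slc45a2*. On GRCm38 they lie at chr14:37034909-37048964, chr7:79374870-79387048, chr15:79251014-79254761, chr10:128913593-128922888 and chr15:11000721-11029233, in this order, as protein-coding genes of GENCODE M21. In humWT 75 gated cells had 3 of them, 75 had 4 and 52 had all 5. In humdG these numbers were 48, 54 and 30. *Slc45a2* was detected in 44.6% of gated cells in humWT and 44.7% in humdG. It was higher in melanocytes, whose level was 590 CPM in humWT against 94.0 CPM in RPE. The gate genes together held 972 CPM in humWT melanocytes, so *Slc45a2* was not the only one counted there. CPM are the UMIs of a gene summed over the cells of a set and divided by all UMIs of that set, in parts per 1e6.

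The label was checked on genes the gate did not use. *Tyr*, *Tyrp1*, *Dct*, *Pmel*, *Ttr*, *Mitf*, *Otx2*, *Trpm1* and *Kcnj13* were each at least 3-fold higher in RPE than in all other kept cells in both libraries. Of the late markers, *Rpe65*, the isomerase of the visual cycle, had 2 UMIs in humWT and 3 in humdG, *Lrat*, which makes retinyl esters, had 1 and 4, and the chloride channel *Best1* had 2 and 3. These cells thus carried the pigment and transport genes of the RPE, while transcripts of 3 genes known from the mature tissue were at or near 0.

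Promoters of the melanin genes were searched for 3 motifs on both strands. RefSeq promoters (GRCm38.p6, 250 bases before and 50 after the start) matched 8 of the 12 melanin and melanosome genes and 4 of the 5 gate genes. The M-box, written TCATGTG, is the element that MITF is known to bind in pigment genes, and it occurred in 5 of the 10 promoters of these 8 genes, beside 3.77% of the 32851 promoters of all genes. The OTX element TAATCC was in 3 of the 10, beside 7.06% of all, and the MYRF motifs CTGGCAC and CTGGTAC in 1, beside 7.096% of all. The stretches of 80 bases are shown for 4 of the 5 genes with an M-box, whose levels are described next. Each is 5′ to 3′ on the strand of its gene and lies before the start, with the M-box in capitals.
Tyr: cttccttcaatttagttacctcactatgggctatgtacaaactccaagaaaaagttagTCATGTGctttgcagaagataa
Tyrp1: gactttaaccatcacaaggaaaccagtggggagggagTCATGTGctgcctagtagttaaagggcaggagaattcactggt
Dct: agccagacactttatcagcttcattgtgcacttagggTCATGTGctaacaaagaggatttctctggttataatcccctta
Trpm1: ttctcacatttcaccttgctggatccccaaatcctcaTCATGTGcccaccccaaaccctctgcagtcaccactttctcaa
They lie at chr7:87493513-87493592 (Tyr, minus strand), chr4:80834129-80834208 (Tyrp1, plus), chr14:118052355-118052434 (Dct, minus) and chr7:64153656-64153735 (Trpm1, plus). *Dct* held a second M-box on the other strand, and *Slc24a5* held 1. In the other lists the M-box was found in *Kcnj13* and *Myo7a*, and in none of the 4 gate genes. Among these lists the MYRF motifs were in 4 of 15 channel and transporter promoters and 2 of 6 nanophthalmos promoters. They were in none of the junction and keratin or secreted and matrix promoters, and in 1 promoter of each further list. The OTX element was in 3 of 6 nanophthalmos promoters, in none of the uptake, junction and secreted promoters, and in 1 or 2 of each further list. A match describes letters in a window and does not show binding.

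Levels in RPE were compared with all other kept cells of the same library, as sums of UMIs scaled to CPM, with 10 CPM added to both sides of a fold. Of 6533 genes with at least 100 UMIs in gated cells, gate genes left out, 320 (4.9%) were at least 4-fold higher in RPE in humWT and 310 (4.75%) in humdG. The lists shared 260 genes, 81.2% of the first and 83.9% of the second. Among 83 genes listed by their role in RPE, 71 had at least 100 UMIs, of which 46 passed 4-fold in humWT, 44 in humdG and 42 in both. The other 12 had fewer UMIs, and 7 of them had at most 10. Since the cells were gated on RPE genes, these counts describe the gated population and were not tested.

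Pigment genes summed to nearly the same level in both libraries, but the median over cells of their share of UMIs was 1.05% in humWT and 1.64% in humdG, so that the equal sums depend on weighting cells by their depth. The 12 melanin and melanosome genes summed to 20577 CPM (20411 to 20743, exact Poisson interval) in humWT RPE and 20519 CPM (20305 to 20734) in humdG RPE, beside 927 and 627 CPM in all other kept cells. *Pmel*, the fibril protein of melanosomes, had 8146 and 9548 CPM, and *Dct*, dopachrome tautomerase, had 6495 and 5339 CPM. *Tyr*, the tyrosinase that starts melanin synthesis, had 1090 and 1108 CPM, and *Tyrp1* had 1040 and 1346 CPM. *Trpm1*, a cation channel of pigment cells, had 1126 and 776 CPM. Melanocytes, taken as cells with *Pax3*, held 30382 and 33267 CPM for the same list, so that the list alone does not separate the 2 pigmented cell types. *Dct* was higher in melanocytes, at 15081 CPM in humWT and 16507 CPM in humdG, and *Pmel* was lower there, at 6805 and 8208 CPM. Both genes helped to define the melanocytes.

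Genes of vitamin A handling were lower as a sum in humdG RPE. The 9 genes reached 9568 CPM (9455 to 9682) in humWT and 8075 CPM (7941 to 8210) in humdG, and 541 and 383 CPM in all other kept cells. *Ttr*, the plasma carrier of the retinol complex, made most of this difference, with 5308 and 3938 CPM. The retinol dehydrogenase *Rdh10* had 1425 and 1187 CPM, and the retinol receptor *Stra6* 317 and 357 CPM. *Rbp4*, the serum retinol-binding protein, was the only gene of this list past 1.5-fold between the libraries, with 70.3 CPM from 202 UMIs in humWT and 45.9 CPM from 79 UMIs in humdG.

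Ion and nutrient transport genes summed to 8800 CPM in humWT and 8652 CPM in humdG, while the median over cells of their share of UMIs was 0.377% and 0.522%. *Bsg*, the partner protein of lactate transporters, had 2767 and 3568 CPM, the glucose transporter *Slc2a1* 793 and 853 CPM, and the cation channel *Trpm3* 3629 and 2581 CPM. *Kcnj13*, a potassium channel of the apical membrane, had 74.8 and 88.3 CPM, but melanocytes had 274 and 430 CPM, so its transcripts were not restricted to the RPE. *Slc16a3*, a lactate transporter of glycolytic cells, had 20.5 CPM (15.6 to 26.5) in humWT RPE against 22.6 CPM in other cells and 31.9 CPM (24.1 to 41.6) in humdG RPE against 41.1 CPM, differences within counting error.

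All 9 genes of outer segment uptake had at least 100 UMIs. *Ctsd*, the lysosomal protease that degrades taken-up discs, had 4723 CPM in humWT and 4342 CPM in humdG against 226 and 136 CPM in other cells. *Ezr*, which builds apical microvilli, had 891 and 798 CPM against 40.8 and 25.3 CPM. The uptake receptor *Mertk* was much lower, at 54.3 and 48.8 CPM against 24.4 and 12.1 CPM, and *Mfge8*, a bridging ligand, was at 52.6 and 53.4 CPM against 66.5 and 54.0 CPM.

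The 11 junction and keratin genes summed to 2677 and 2332 CPM in humWT and humdG RPE, beside 416 and 256 CPM in melanocytes. In RPE of both libraries *Krt18* was the highest of them. *Krt18* had 1265 CPM in humWT RPE and 1288 CPM in humdG RPE, beside 84.998 and 2.51 CPM in melanocytes. *Cdh3*, P-cadherin, had 830 and 463 CPM, and 110 and 1.26 CPM in melanocytes. *Cldn1* and *Cldn2* were at 73.2 to 93.3 CPM across the libraries, whereas *Cldn19*, the tight junction protein of the mature tissue, had 1 UMI in each. E-cadherin (*Cdh1*) had 2 UMIs in humWT and 1 in humdG. In melanocytes *Rgr* had 97.5 CPM in humWT and 0 CPM in humdG and *Ttr* 410 and 67.8 CPM. This set had 72 cells in humWT and 32 in humdG. *Mlana* had 910 and 1097 CPM there, but it is among the genes that defined the set. The set required *Pax3*, so cells that only *Pax3* kept out of the RPE gate could enter it. There were 7 such cells in humWT and 0 in humdG. Their part in the melanocyte values given here was not tested.

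Secreted and matrix genes summed to 16836 CPM (16687 to 16987) in humWT and 18991 CPM (18786 to 19198) in humdG. *Cst3*, cystatin C, had 7662 and 9686 CPM, *Col8a1*, a collagen of basement membranes, 4303 and 4784 CPM, and clusterin (*Clu*) 1310 and 1492 CPM. *Bmp4* had 405 and 449 CPM against 29.98 and 12.0 CPM in other cells, and *Vegfa*, the vessel growth factor of the choroid, had 281 and 301 CPM against 57.0 and 81.2 CPM. *Serpinf1*, which encodes the pigment epithelium-derived factor, was lower in RPE than in other cells, at 34.1 against 107 CPM in humWT and 32.5 against 65.3 CPM in humdG.

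**Figure D1:**
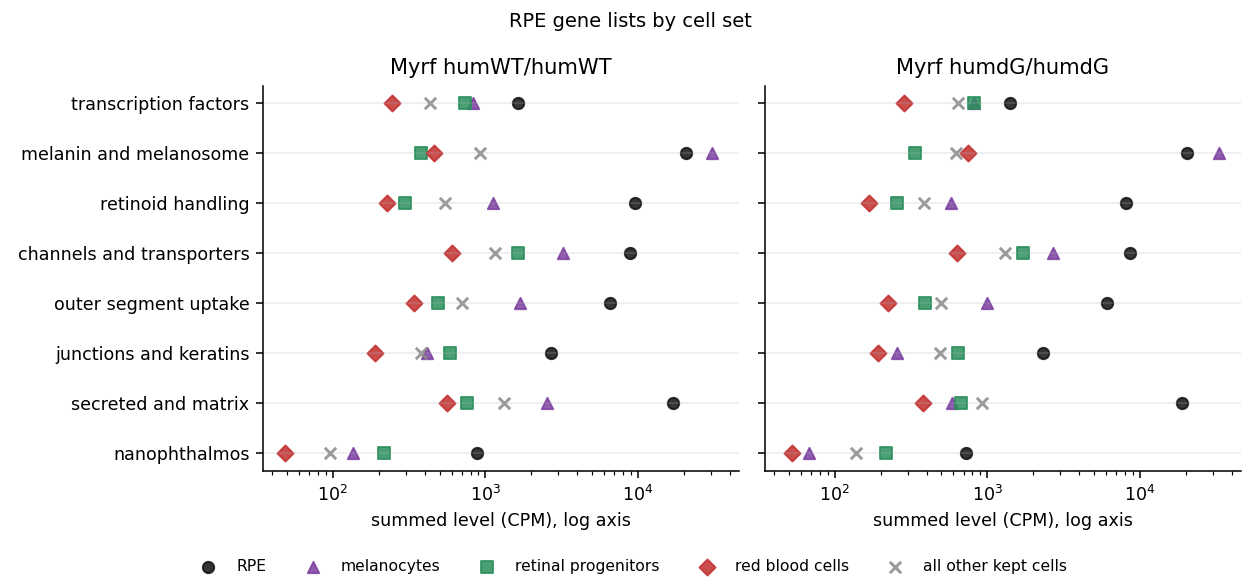
Summed level of each RPE list (x axis, CPM, log axis) in 5 cell sets of each library, with 1 value per set and no error bars. RPE lay to the right of red blood cells and of all other kept cells in all 8 lists of both libraries. Melanocytes lay above RPE only for melanin and melanosome genes, some of which were used to choose the melanocytes.

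Of the factors that specify the RPE, *Mitf* had 410 CPM in humWT and 345 CPM in humdG against 41.7 and 21.05 CPM in other cells. *Otx2* had 487 and 485 CPM. *Pax6* was lower in RPE than elsewhere, with 45.9 and 68.5 CPM against 121 and 297 CPM. *Sox9* had 239 and 140 CPM, and the RPE-linked factor *Tfec* had 1 UMI in humWT and 0 in humdG. *Myrf* had 999 UMIs in humWT and 437 in humdG, or 348 CPM (326 to 370) and 254 CPM (230 to 279), against 9.62 and 3.96 CPM in other cells. It was found in 65.3% of gated cells in humWT and 63.6% in humdG. Because the method reads near the 3′ end and both alleles carry the human last exon there, these counts do not tell the alleles apart. How far that end is human is described in 2 ways by the study, and the part that human sequence played in the counts was not tested.

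The 20 genes with the highest folds in both libraries, by the smaller fold, were led by *Ttr* at 97.3-fold in humWT and 162-fold in humdG. They comprised 9 genes of the role lists and 11 others. *Ptgds*, prostaglandin D synthase, was 47.1-fold and 78.9-fold higher, with 8580 CPM in humWT and 9604 CPM in humdG, although melanocytes also held 6094 and 7276 CPM. *Mt3*, a metal-binding metallothionein, had 620 and 739 CPM in RPE and 20.2 and 0 CPM in melanocytes. *Col4a3* had 426 and 571 CPM and *Col9a3* had 1733 and 1747 CPM, so that chains of basement membrane and of fibril-associated collagens were among them. *Sostdc1*, a secreted inhibitor of BMP and WNT signals, had 646 and 965 CPM, and the carbonic anhydrase *Car14* had 512 and 603 CPM.

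The folds were larger in humdG for 19 of the 20 genes. The level in all other kept cells was lower in humdG for 18 of them, and 0 were 1.5-fold higher in humdG RPE itself, while 3 were 1.5-fold lower. For *Ttr* other cells held 44.7 CPM in humWT and 14.3 CPM in humdG, and red blood cells, which should not transcribe it, 31.4 and 13.2 CPM. Free RNA in the droplets can bring such counts into every cell, and its part in the folds was not tested.

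**Figure D2:**
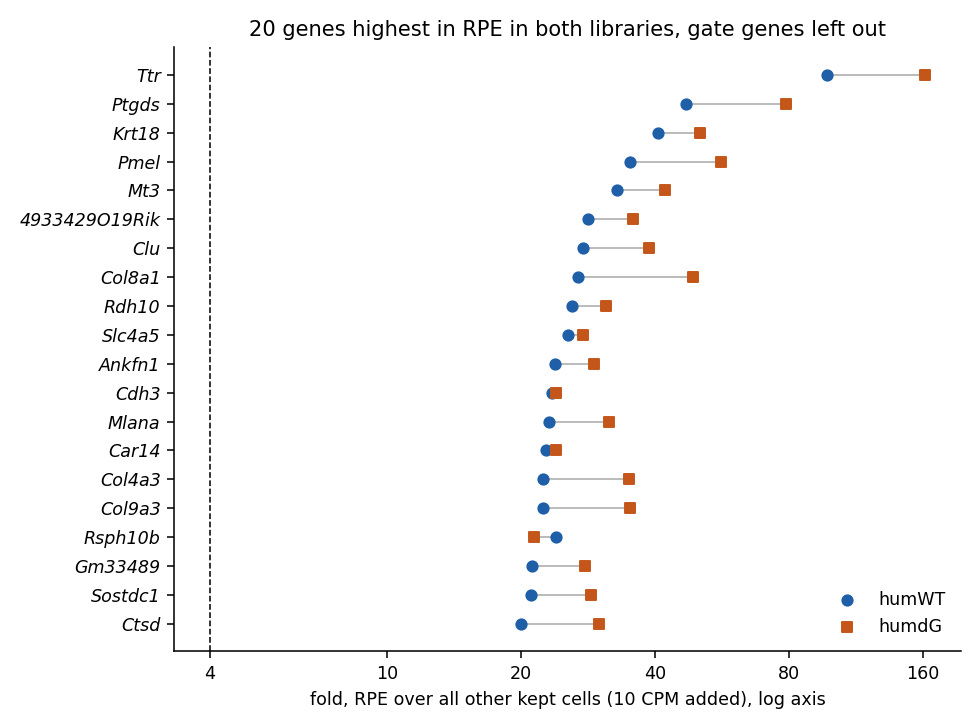
Fold of RPE over all other kept cells (x axis, log axis, 10 CPM added to both) for the 20 genes highest in both libraries, humWT as circles and humdG as squares. The dashed line is 4-fold, and 19 squares lie to the right of their circle.

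The red blood cells served to gauge this background, with 579 cells in humWT (median 4257 UMIs) and 437 in humdG (median 3518 UMIs) in which haemoglobin genes held at least 10% of UMIs. After thinning each cell to 1000 UMIs, *Pmel* was detected in 85.6% of gated cells and 15.9% of red blood cells in humWT, and in 92.4% and 10.8% in humdG. Unthinned, these shares were 97.0% and 40.6% in humWT and 98.5% and 32.5% in humdG. *Ttr* was detected in 72.8% and 3.97% in humWT and in 67.2% and 1.602% in humdG. All 202 gated cells of humWT and 131 of the 132 of humdG were deep enough for this.

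Markers of other lineages were measured in the gated cells as well. Mesenchyme genes summed to 2140 CPM in humWT RPE and 938 CPM in humdG RPE, led by *Col1a1* with none of the 8 at 0. The humdG sum rested largely on 1 deep cell, with 2.41% of its 34577 UMIs in this list. The median over gated cells was 0.144% in humWT and 0.0488% in humdG. The same list held 14108 and 6403 CPM in other cells and 3958 and 1662 CPM in red blood cells, so the gated cells were below the red blood cells in both libraries. Red blood cell genes summed to 2864 and 2162 CPM, led by *Hbb-bs*, with none of the 6 at 0. In humWT, gated cells of 23371 and 3591 UMIs held 13.3% and 27.5% of them in these genes, past the 10% used to define red blood cells. The median share over gated cells was 0.184% in humWT and 0.309% in humdG, the reverse order of the sums. Retinal progenitor genes summed to 364 and 565 CPM, led by *Sfrp2*, which alone of the 6 was higher in RPE than in other cells. The melanocyte list held 997 and 1078 CPM, led by *Mlana*, a pigment gene that the RPE also expresses, while *Pax3*, which the gate set to 0, and *Mc1r* were at 0.

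In 51 of 202 gated cells of humWT and 41 of 132 of humdG at least 1 other-lineage list held 0.5% of UMIs or more. The red blood cell list did so in 39 and 38 cells, and the mesenchyme list in 19 and 3. No doublet caller was run. Leaving these cells out kept 151 and 91 cells.

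**Figure D3:**
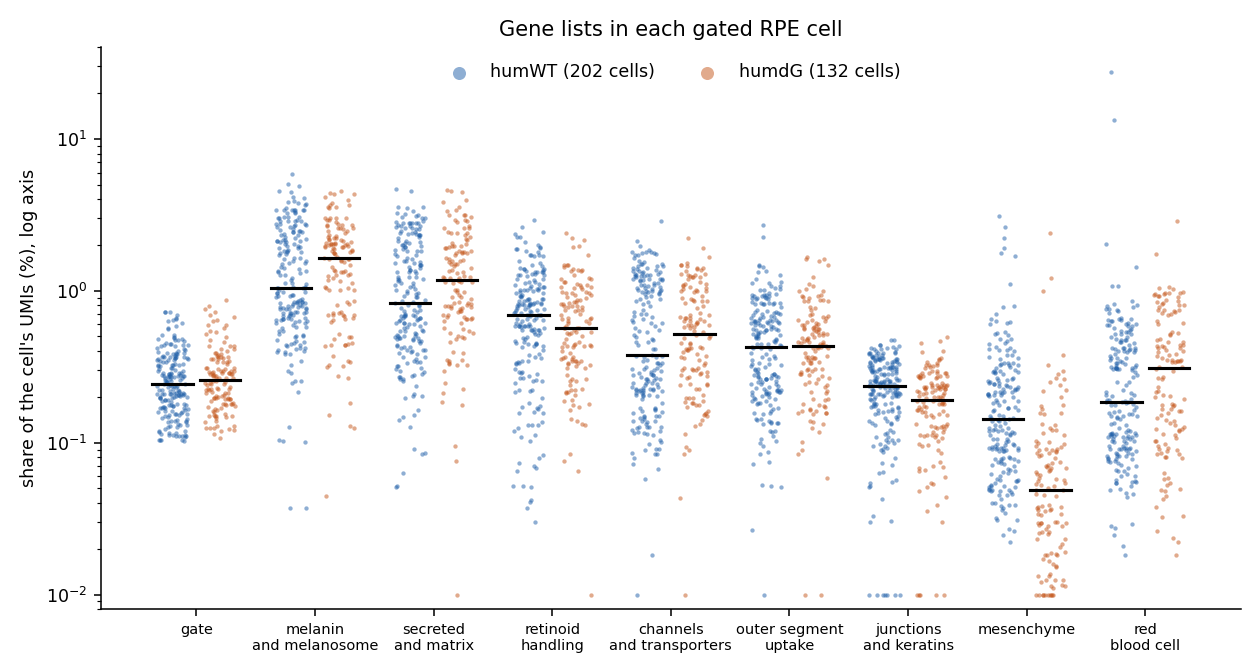
Share of each gated cell's UMIs (y axis, percent, log axis) in 9 gene lists, with 1 point per cell and the median as a black bar, and with shares under 0.01% drawn at 0.01%. Melanin and melanosome genes had medians of 1.05% in humWT and 1.64% in humdG, and the mesenchyme list had 0.144% and 0.0488%.

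Gated cells varied widely among themselves. The share of melanin and melanosome genes ran from 0.0371% to 5.85% of a cell's UMIs in humWT and from 0.0444% to 4.53% in humdG, and that of secreted and matrix genes reached 4.69% and 4.63%. After thinning, the median variance over mean across genes was 1.24 in humWT and 1.23 in humdG, where 1 is what counting alone gives for cells of equal level. *Dct* had 6.31 in humWT and 5.203 in humdG and was the only melanin gene among the 10 most variable genes of both libraries. *Hbb-bs* had 87.4 in humWT, where the highest gated cell held 27.5% of its UMIs in red blood cell genes. The remaining leaders included *Gm42418* (84.4 in humWT and 31.0 in humdG), *Malat1* and *mt-Atp6*, none of which marks the RPE, and in humdG *Ptgds* (5.49) and *Cst3* (6.32).

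The genotypes were compared as the ratio of humdG to humWT UMIs over all gated cells, scaled to each library's RPE total. Of 6538 genes with at least 100 UMIs, 485 (7.42%) were at least 1.5-fold lower in humdG and 132 (2.02%) at least 1.5-fold higher. The median log2 ratio of these genes was -0.05 in RPE, 0.06 in all other kept cells and 0.16 in red blood cells. Among the 71 role genes with 100 UMIs, 62 lay within 1.5-fold, 6 were lower (*Wfikkn2*, *Ocln*, *Cdh3*, *Sox9*, *Myo7a* and *Rbp4*) and 3 were higher (*Slc16a3*, *Enpp2* and *Slc6a20a*). These counts are near the background of all genes. The counts moved with the settings: 902 genes were lower with the gate at 0.05%, 932 were lower and 357 higher with every cell weighted alike, and 297 were lower and 71 higher with 10 CPM added. With the wider limit of 20 UMIs, 1486 of 11562 genes (12.9%) were lower and 670 (5.79%) higher.

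At that limit the median log2 ratio was -0.11 for the 12 melanin and melanosome genes, of which 0 passed 1.5-fold, and -0.06 for all genes. It was -0.26 for 7 retinoid genes, 0.05 for 14 channel and transporter genes, -0.12 for 9 uptake genes, -0.03 for 9 junction and keratin genes and 0.12 for 14 secreted and matrix genes. For 7 transcription factors it was -0.003, with members from -0.77 to 1.43. The channel and transporter genes ran from -1.68 to 1.11. *Oca2*, a melanosome anion channel, and *Trpm1* were the lowest melanin genes with log2 ratios of -0.53 (-0.65 to -0.42) and -0.54 (-0.63 to -0.44), and *Tyrp1* was the highest with 0.37 (0.29 to 0.45). The 4 nanophthalmos genes that reached the limit had a median of -0.14, which became 0.22 with every cell weighted alike. *Myrf* itself had -0.45 (-0.62 to -0.29), *Tmem98*, whose protein binds MYRF, -0.21 (-0.34 to -0.08), *Mfrp* -0.08 (-0.60 to 0.42) and the polarity gene *Crb1* 0.20.

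Of 16 genes that the study discusses as lower in humdG or as targets of MYRF, 11 were at least 1.5-fold lower in gated RPE and 0 higher, where 7.42% of all genes were lower. The median log2 ratio of these 16 was -0.93 in RPE, -1.21 in all other kept cells and -1.15 in red blood cells. Of 12 genes that it names as higher, 4 were higher and 0 lower, where 2.02% of all genes were higher, with medians of 0.40 in RPE, 0.60 in other cells and 0.88 in red blood cells. The study chose most of these genes on these libraries, so these counts are not independent evidence of direction. The uroplakins *Upk3b* and *Upk1b*, membrane proteins of epithelia, had 447 and 176 CPM in humWT and 207 and 82.4 CPM in humdG. Their log2 ratios were -1.11 and -1.09 in RPE, -1.81 and -1.26 in other cells and -0.77 and -0.90 in red blood cells. *Wfikkn2*, a secreted protein that binds growth factors of the TGF-beta family, had 467 and 179 CPM, from 1343 and 309 UMIs. *Cdh3* had log2 ratio -0.84 (-0.96 to -0.72), and *Ankfn1* had -0.99 (-1.10 to -0.88) with 1059 CPM in humWT and 534 CPM in humdG. Neither *Wfikkn2* nor *Ankfn1* was lower in RPE alone: the log2 ratios were -1.30 and -2.02 in all other kept cells and -1.27 and -4.69 in red blood cells. *Cdh3* had -1.40 and -2.10 there. *Ermn*, a gene of the actin cytoskeleton, had 183 and 188 CPM, a log2 ratio of 0.04 (-0.17 to 0.24).

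*Serpine3*, a protease inhibitor of the serpin family at chr14:62663667-62692243 (GRCm38), was the furthest apart. It had 997 UMIs in humWT RPE and 1 UMI in humdG RPE, a log2 ratio of -8.64 (-14.53 to -6.74). In humWT its UMIs came from 51 of 202 gated cells, and 5 of these cells held 63.4% of them, so that most gated cells had none. In humdG 1 of 132 gated cells had a UMI. All other kept cells held 7.80 CPM in humWT and 3.06 CPM in humdG. Red blood cells held 8.68 and 0 CPM, melanocytes 64.8 and 1.26 CPM, and retinal progenitors 5.83 and 3.83 CPM. *Serpine3* was thus lower in humdG in each of these sets too, and the differences between sets were not tested.

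The collagens *Col1a1*, *Col1a2*, *Col3a1* and *Col2a1* are the remaining lower genes beside *Tcf4*. *Col1a1* had 705 CPM in humWT RPE and 343 CPM in humdG RPE, but 1418 and 628 CPM in red blood cells and 5412 and 2343 CPM in all other kept cells. The log2 ratio was -1.04 in RPE, -1.21 in other cells and -1.17 in red blood cells. *Col3a1* had -1.73, -1.15 and -1.45, and *Col1a2* had -0.87, -1.15 and -1.17. All 4 were lower in RPE than in red blood cells of humWT, and the part of free RNA or of other cells in their counts was not tested. The counts were uneven between gated cells of humWT, where 5 cells held 37.8% of the *Col1a1* and 48.2% of the *Col3a1* UMIs. In humdG 1 gated cell held 56.9% of the *Col1a1* UMIs and 56.6% of those of *Col1a2*. Without cells that carried other-lineage markers, *Col1a1* had a log2 ratio of -1.83.

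*Id1*, *Id2* and *Id3* encode dominant-negative partners of helix-loop-helix factors and are known targets of BMP signals. *Id1* and *Id3* are in the study's list, and *Id2* is named for its ratio. *Id1* had 43.2 CPM in humWT and 192 CPM in humdG, a log2 ratio of 2.15 (1.85 to 2.46), beside 0.76 in other cells and 0.88 in red blood cells. *Id3* had 188 and 616 CPM, a ratio of 1.71 (1.56 to 1.87), beside 0.35 and 0.57. *Id2* had 220 and 451 CPM, a ratio of 1.04 (0.89 to 1.19), beside 0.39 and 0.66. *Id1* was detected in 36.1% of gated cells in humWT and 61.4% in humdG. After thinning these shares were 2.97% (1.10 to 6.35) and 13.7% (8.35 to 20.8), beside 3.11% and 9.38% of red blood cells. The intervals of red blood cells were 1.85 to 4.87% and 6.82 to 12.5%, which overlap those of RPE in both libraries. For *Id3* the thinned shares in humdG were 31.3% (23.5 to 39.98) of gated cells and 13.5% (10.4 to 17.1) of red blood cells, and in humWT 14.9% and 8.81%.

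The other higher genes of the second list were higher in other cells as well. *Cdk8* had 1445 and 5160 CPM in RPE and 5181 and 10980 CPM in red blood cells, a larger fold in RPE but from lower levels. *Ldha*, lactate dehydrogenase, had log2 ratios of 0.79 in RPE, 0.75 in other cells and 0.97 in red blood cells. The glycolytic genes *Gapdh* and *Eno1* had 0.24 and 0.17 in RPE, less than the 0.43 and 0.67 of other cells. *Ccnd1*, a cyclin of the G1 phase, had 0.23 in RPE and 0.88 in other cells.

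**Figure D4:**
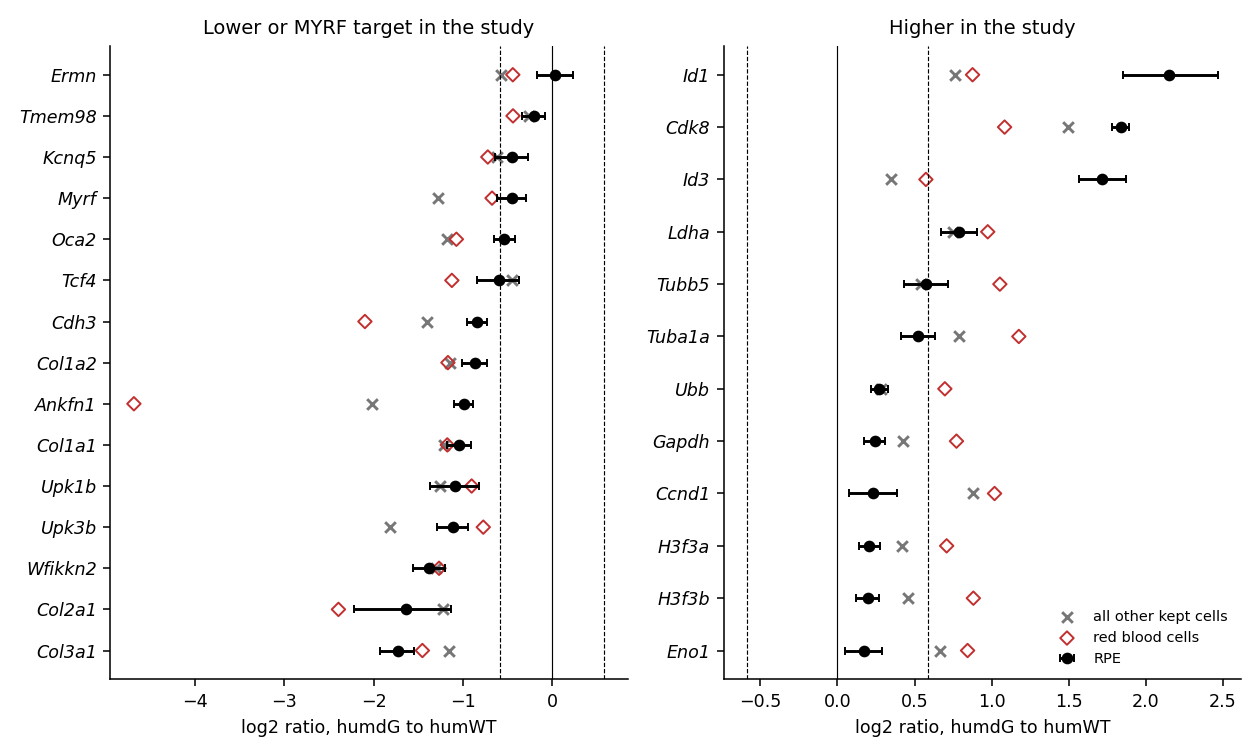
Log2 ratio of humdG to humWT (x axis) in RPE (black points with 95% counting intervals), in all other kept cells (crosses) and in red blood cells (diamonds) for the genes the study names, without *Serpine3*, whose ratio of -8.64 is off the axis. Dashed lines are 1.5-fold, and in the right panel *Id1* and *Id3* are the genes whose RPE point lies farthest to the right of both other marks.

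The genes that differed most among those at least 2-fold higher in RPE than elsewhere in at least 1 library were taken next. A gene can enter this set through the library where it is high, so the choice itself favours differences between the libraries, and nothing is read from the counts: of 1080 such genes, 133 (12.3%) were 1.5-fold lower in humdG RPE and 34 (3.15%) higher, beside 7.42% and 2.02% of all genes. After *Serpine3*, the lowest were *Fgfbp3*, *Slc38a8*, *Fam129a*, *Tfeb*, *Pde6c*, *Ppp1r16b*, *Insl6*, *Stxbp5l* and *Padi2*. *Fgfbp3*, which encodes a carrier of fibroblast growth factors, had 300 UMIs in humWT and 43 in humdG, or 104 and 25.0 CPM. *Slc38a8*, an amino acid transporter linked to foveal development, had 80.05 and 20.3 CPM. *Tfeb*, a lysosomal relative of MITF, had 32.4 and 9.87 CPM from 93 and 17 UMIs, and it was detected in 31.7% of gated cells in humWT and 9.85% in humdG.

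The 10 highest were *Dgkb*, *Car10*, *Cldn10*, *Slc6a20a*, *Tmem88*, *Id2*, *Slit3*, *Dach2*, *Igfbp2* and *Acta2*. Of these *Dgkb*, *Car10*, *Tmem88*, *Slit3*, *Dach2* and *Acta2* were 2-fold higher than in other cells in humdG only, as *Serpine3*, *Fgfbp3*, *Fam129a*, *Tfeb*, *Pde6c*, *Insl6* and *Stxbp5l* among the lowest were in humWT only. *Igfbp2*, a binding protein of insulin-like growth factors, rested on the most counts, with 2939 and 3305 UMIs, or 1023 and 1919 CPM, and its ratio of 0.91 (0.84 to 0.98) stood beside 0.66 in other cells. *Cldn10*, an ion-selective claudin, had 48.0 and 113 CPM, a ratio of 1.23 (0.91 to 1.56), beside 0.18 in other cells. *Dgkb*, a diacylglycerol kinase, had 32.02 and 131 CPM. In humdG a single cell held 38.7% of the *Car10* UMIs, 36.5% of those of *Slit3* and 36.0% of those of *Acta2*, and without the deepest gated cell of each library *Car10* had 1.14 in place of 1.80.

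**Figure D5:**
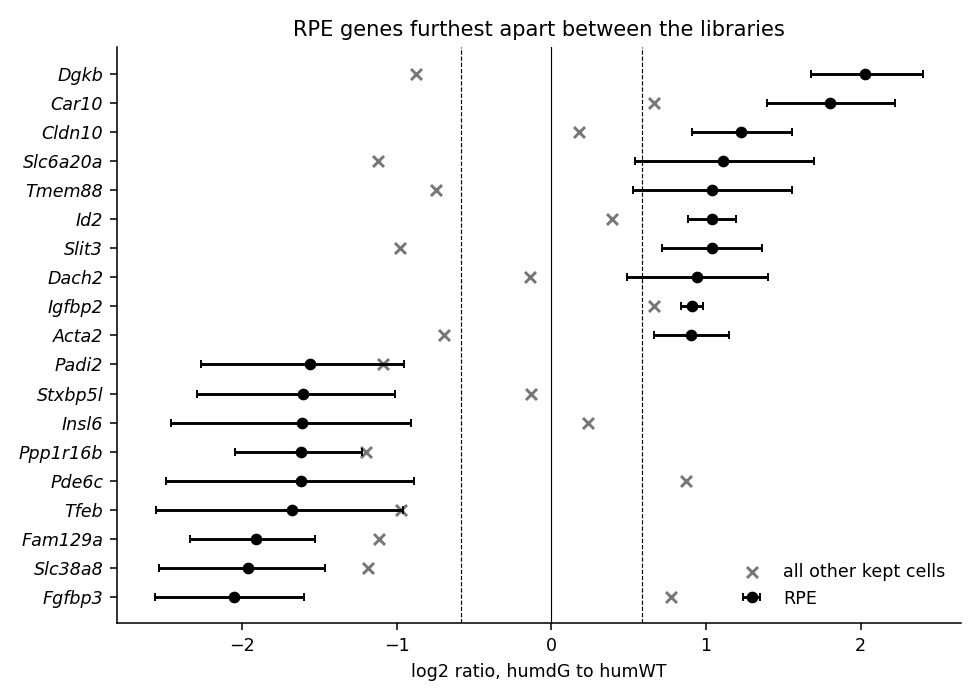
Log2 ratio of humdG to humWT (x axis) in RPE (points with 95% counting intervals) and in all other kept cells (crosses) for the 9 lowest genes after *Serpine3* and the 10 highest. Dashed lines are 1.5-fold, and the crosses of *Fgfbp3*, *Pde6c*, *Insl6*, *Dgkb*, *Slc6a20a*, *Tmem88*, *Slit3*, *Dach2* and *Acta2* lie on the far side of 0 from their points.

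Of the 12 cell cycle genes, 10 were lower in RPE than in other cells and 2 higher in both libraries. *Mki67* had 31.0 CPM in humWT RPE and 57.5 CPM in humdG RPE against 154 and 189 CPM in other cells, and *Top2a* had 66.1 and 81.9 CPM against 286 and 397 CPM. Between the libraries 1 of the 12 was 1.5-fold lower in humdG RPE (the inhibitor *Cdkn1c*, 448 and 262 CPM) and 2 were higher (*Mki67*, and the inhibitor *Cdkn1a* from 10 and 26 UMIs), beside 12.9% and 5.79% of all genes. Sex-linked genes were read as a check of the pools. *Xist* had 335 CPM in humWT RPE and 291 CPM in humdG RPE, against 262 and 575 CPM in other cells, and the Y-linked *Ddx3y* had 33.8 and 44.1 CPM in RPE against 40.8 and 28.1 CPM. *Uty* had 35.8 and 37.2 CPM and *Kdm5d* 15.7 and 14.5 CPM in RPE. The part of embryo sex in the ratios was not tested.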

How the data were processed

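The authors aligned reads to mm10 with Cell Ranger 7.1.0 and used Seurat 4.1.1, per the labels' processing notes (the study's methods name other Seurat versions), and deposited raw UMI counts per gene and barcode, with more barcodes than the cells the study states. Whether intronic reads were counted is not given in the sources used here. No per-sample column was left unused.

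Counts were summed over cells and scaled to CPM. Ratios between genotypes had 0.5 counts added to each sum and exact conditional binomial intervals, shares had exact Clopper-Pearson intervals and sums exact Poisson intervals, all at 95% (Python 3.11.15, numpy 2.4.6, scipy 1.17.1, pandas 2.3.3, matplotlib 3.10.9). Cells were thinned without replacement with a fixed seed of 17. Ratios and intervals were tested on simulated sums drawn with counting error only. That test checks the calculation and does not cover variation between cells or libraries. The study's rank test over cells was not used, because cells are not replicates. Cells with at least 10% of UMIs in haemoglobin genes were taken as red blood cells. Melanocytes had *Pax3*, at least 3 of *Dct*, *Pmel*, *Tyrp1*, *Mlana* and *Tyr*, and 0.5% of UMIs in these. That gate and the one for retinal progenitors were chosen after seeing the data.

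Members, lists and thresholds were chosen with earlier results of these data known. Named genes were list members, the 20 genes with the largest smaller fold of both libraries (100 UMIs in each), the 10 highest and 10 lowest ratios among genes 2-fold higher in RPE, and the 10 most variable genes per library with at least 50 thinned UMIs. Alternatives changed the gate, filters, scaling, weighting of cells, added counts and gene minimum. Sex-linked genes were added as a check of the pools. Coordinates are from GENCODE M21 and promoters from RefSeq. The values of 1 gene of the retinoid list are not reported here.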

Additional observations from a re-analysis of the deposited data

Results flagged for a closer look

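For 8 named genes the log2 ratio of humdG to humWT passed 1.5-fold in one direction in RPE and in the opposite direction in all other kept cells of the same libraries. All but *Enpp2* came from the set of genes 2-fold higher in RPE than in other cells in at least 1 library, which favours opposite directions in the 2 cell sets. The difference between the cell sets was not tested, since each genotype has 1 library. *Fgfbp3* had -2.05 in RPE and 0.78 in other cells, and *Pde6c*, a cone phosphodiesterase subunit, had -1.62 and 0.87. *Dgkb* had 2.03 and -0.88, *Slc6a20a* 1.11 and -1.12, and *Tmem88* 1.04 and -0.75. *Slit3* had 1.04 and -0.98, but -0.21 in RPE with every cell weighted alike, and 5 cells held 77.9% of its humdG UMIs. *Acta2* had 0.90 and -0.69, and the lysophospholipase *Enpp2* 0.67 and -0.61. In red blood cells *Acta2* had 1.15, *Fgfbp3* 1.18 and *Pde6c* 0.91, while *Dgkb* had -0.63, *Slc6a20a* -0.98, *Slit3* -1.75, *Tmem88* -1.06 and *Enpp2* -0.30. In retinal progenitors *Dgkb* had 0.002, *Slc6a20a* -0.11, *Tmem88* -0.22 and *Fgfbp3* 0.24, whereas *Slit3* had -0.74, *Acta2* -0.81 and *Pde6c* 1.07. Progenitors numbered 2479 in humWT and 5960 in humdG, so the mix of other cells also differed, and its part was not tested. The RPE values of *Pde6c* rest on 89 and 17 UMIs and those of *Slc6a20a* on 47 and 61.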

How the results depend on the processing

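No paired analysis was possible because each genotype has 1 library, and for the same reason no library could be left out. Of the 11 list medians under 9 alternatives, 98 of 99 values moved by less than their spread; the exception was the nanophthalmos median, which went from -0.14 to 0.22 with every cell weighted alike. For named genes 369 values held, 53 moved and 1 reversed. With every cell weighted alike 25 held, 21 moved and *Slit3* reversed to -0.21. The gate at 0.05% came next, with 10 moved and 37 held. The share of gated cells in humWT was 1.45% with the gate at 0.05%, 0.770% at 0.2%, 0.746% with at least 4 of 5 genes, 0.887% without cells with other-lineage markers and 0.306% in thinned cells. In humdG it was 0.465% at 0.2%, 0.439% with 4 of 5 genes, 0.476% without those cells and 0.208% in thinned cells. With 1 CPM added, 494 genes in humWT and 504 in humdG passed 4-fold. Genes 1.5-fold lower in humdG numbered 902 with the gate at 0.05%, 932 with every cell weighted alike, 1486 at 20 UMIs and 297 with 10 CPM added, and genes 1.5-fold higher 357, 670 and 71 under the last 3. The summed level of other-lineage markers went from 7628 to 7788 CPM in humWT and from 5868 to 6043 CPM in humdG without the deepest cell, and to 5728 and 5162 CPM with the gate at 0.2%. The causes were not tested.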

Other observations

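Lens membrane genes were detected in gated RPE. The lens list held 55.0 CPM in humWT RPE and 75.5 CPM in humdG RPE against 3.64 and 2.85 CPM in all other kept cells. *Mip*, the lens water channel, led it in humWT with 27.8 CPM, and *Lim2*, a lens fibre membrane protein, led it in humdG with 43.0 CPM. Of the 3 crystallin genes of the list, *Cryba4* was at 0 in gated cells of both libraries, *Cryaa* had 1 UMI in humWT and 0 in humdG, and *Crygd* had 0 and 1. No gated cell held more than 0.0362% of its UMIs in this list.

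The ciliary margin list held 433 and 470 CPM in RPE against 83.8 and 84.4 CPM in other cells. The gap junction gene *Gja1* made up most of this, with 391 and 431 CPM. Of the 5 genes of the list, only 2 were higher in RPE than in other cells in humWT and only 1 in humdG. Muscle genes held 104 and 29.6 CPM in RPE against 299 and 125 CPM in other cells, endothelial genes 77.3 and 38.9 CPM against 417 and 307 CPM, macrophage genes 53.2 and 44.1 CPM against 197 and 127 CPM, and cartilage genes, led by *Sox5*, 339 and 184 CPM against 394 and 264 CPM. Photoreceptor, amacrine and horizontal, ganglion cell, surface epithelium and Schwann lists each held between 29.6 and 80.7 CPM in RPE of either library.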
